A study of Mus with 15 samples.

Results

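Messenger RNA of 10 genes, 8 interferon regulatory factors (Irf1, Irf2, Irf3, Irf4, Irf5, Irf7, Irf8 and Irf9) and both chains of the type I interferon receptor (Ifnar1 and Ifnar2), was followed across 5 sorted gates of mouse thymocytes. The genes were chosen by family, with earlier results of these data known, out of 55573 genes in the count table, and all 10 had enough counts to be tested.

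Interferon regulatory factors (IRFs) share a DNA-binding domain that reads interferon-stimulated response elements. Type I interferons bind a receptor made of IFNAR1 and IFNAR2, whose kinases JAK1 and TYK2 phosphorylate STAT factors, and these join IRF9 in the complex ISGF3, which turns on interferon-stimulated genes. IRF1 is induced by interferon and drives antigen presentation genes, IRF2 binds the same sites and can counter it, and IRF3, IRF5 and IRF7 carry signals from nucleic acid sensors to the interferon genes. IRF4 and IRF8 act with partner factors in lymphocytes and myeloid cells. IRF4 is induced by T cell receptor signalling, and in mice it is needed by effector regulatory T cells (Tregs).

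The cells came from thymi of 6-week-old female C57Bl/6 x Foxp3-GFP mice, dissociated mechanically and depleted of CD8-positive cells on magnets. All gates took live cells with TCR beta and CD4 on the surface and without CD8 or CD73. The Bst2+ gate held BST2-positive cells that carried CD25, FOXP3 or both. The other 4 gates excluded BST2, a membrane protein that interferon induces: mature Tregs (CD25 and FOXP3), CD25+ progenitors (CD25 without FOXP3), FOXP3lo progenitors (low FOXP3 without CD25) and conventional CD4 single-positive (CD4SP) cells (neither). Each gate had 3 libraries, from the biological replicates numbered 40, 42 and 43, all sorted in a single experiment. Whether a replicate was 1 mouse or a pool is not given, so the p-values cover the spread among these samples, which may be technical.

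Libraries held 10816064 to 23758157 assigned read pairs. Among the 4 BST2-negative gates Foxp3 followed the sort: it averaged 598 ± 59.7 CPM (read pairs scaled to a common library size) in mature Tregs, 3.20 ± 1.24 CPM in CD25+ progenitors, 290.0 ± 15.9 CPM in FOXP3lo progenitors and 0.951 ± 0.545 CPM in conventional cells (SD, n = 3 each). Il2ra, which encodes CD25, averaged 1152 ± 29.3 CPM in mature Tregs and 289 ± 6.84 CPM in CD25+ progenitors. FOXP3lo progenitors, though sorted without CD25, held 107 ± 9.11 CPM of Il2ra, against 9.07 ± 1.47 CPM in conventional cells. The Bst2+ libraries stood apart. Their biological coefficient of variation among replicates was 0.453, against 0.124 to 0.164 within the other gates, their Foxp3 was 25.8 ± 15.7 CPM, and Bst2 itself was 50.3, 18.4 and 15.7 CPM, against 11.3 to 18.3 CPM in the other 12 libraries. The 12 macrophage markers summed to 736 to 1419.5 CPM in the Bst2+ libraries and to 1.73 to 7.99 CPM elsewhere. Comparisons among the 4 BST2-negative gates were therefore fitted on their 12 libraries alone, and the Bst2+ gate is described last.

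Irf1, Irf7 and Irf9 were lowest in CD25+ progenitors among the 4 BST2-negative gates. Irf1 and Irf7 were highest in FOXP3lo progenitors, Irf9 was high in both FOXP3 gates, and Irf4 was highest in CD25+ and lowest in FOXP3lo progenitors. Irf8 was at 2.23 to 3.19 CPM in conventional cells and at 17.3 CPM or more in the other libraries, Irf5 was highest in mature Tregs, Irf3 was lower in the gates with CD25, and Irf2, Ifnar1 and Ifnar2 were higher in both FOXP3 gates than in conventional cells. In bulk RNA, fewer cells with a transcript and less of it per cell cannot be told apart. A gene was called where the adjusted p of edgeR's quasi-likelihood test was under 0.05 (Benjamini-Hochberg, over all 15648 genes tested), with no fold threshold.

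**Figure D1:**
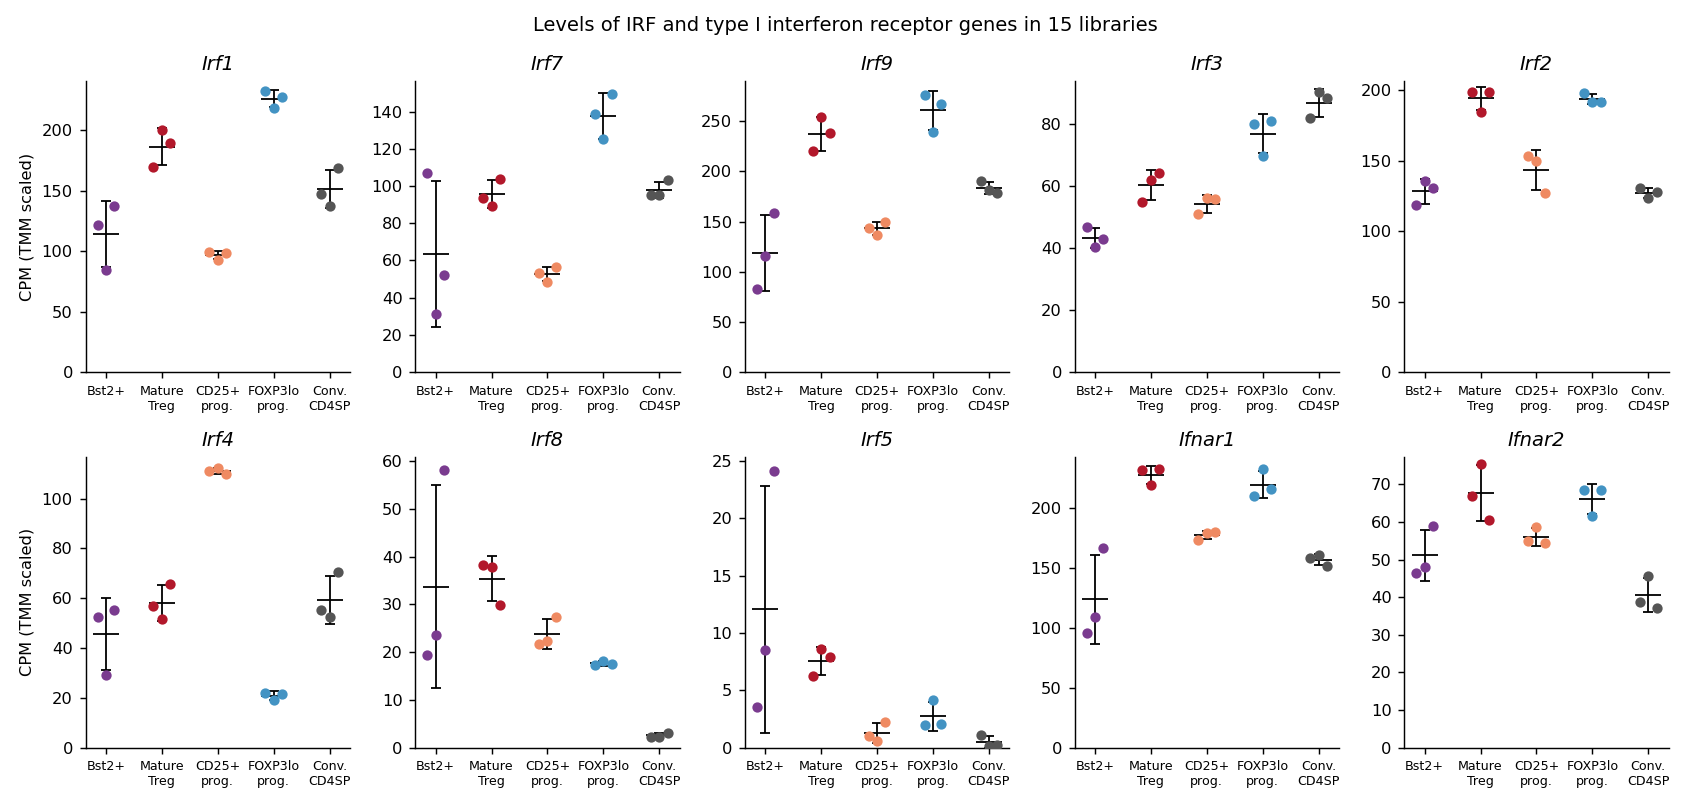
Each panel gives 1 gene in CPM (vertical axis, scaled by TMM) for the 5 gates (horizontal axis); points are libraries, horizontal bars the mean of 3 and whiskers 1 SD. Irf1, Irf7 and Irf9 are lowest in CD25+ progenitors among the 4 BST2-negative gates, where Irf4 is highest, and Irf8 in conventional cells lies at 2.23 to 3.19 CPM.

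CD25+ progenitors differed from conventional cells in 8 of the 10 genes, 4 higher and 4 lower, with 29.0% of all genes called (14.7% higher, 14.3% lower). FOXP3lo progenitors differed from conventional cells in 9, 8 higher and 1 lower, with 25.1% of all genes called (12.8% higher, 12.3% lower). Mature Tregs differed from conventional cells in 8, 7 higher and 1 lower, with 30.4% called (15.1% higher, 15.3% lower). CD25+ progenitors differed from FOXP3lo progenitors in 8, 2 higher and 6 lower, with 39.5% called (19.9% higher, 19.7% lower). Mature Tregs differed from CD25+ progenitors in 9, 8 higher and 1 lower (32.7% of all genes called, 15.9% higher and 16.8% lower), and from FOXP3lo progenitors in 6, 3 higher and 3 lower (18.7% called, 9.37% higher and 9.29% lower). The median log2 fold change of the 10 genes was 0.54 for FOXP3lo progenitors over conventional cells and -0.47 for CD25+ over FOXP3lo progenitors, against -0.01 and -0.02 over all genes tested. With the Bst2+ libraries added to the fit, 21 of the 53 calls made in 70 tests of these genes (the 6 pairs and the interaction described further on) were lost, and 1 instead of 6 separated mature Tregs from FOXP3lo progenitors. The 1 kept was higher in mature Tregs, so Irf1, Irf3 and Irf7 lost this call, as did all but 1 of Irf4, Irf5 and Irf8.

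**Figure D2:**
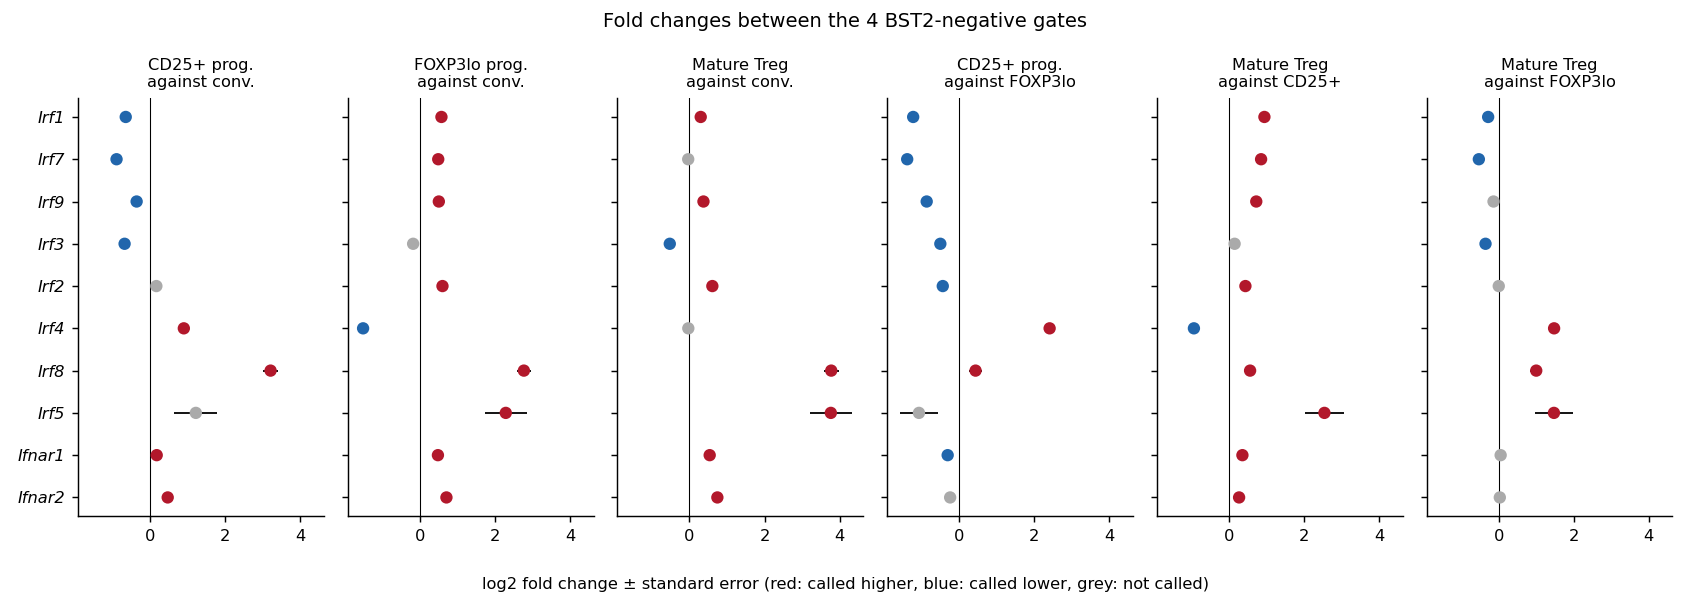
Log2 fold change (horizontal axis, with its standard error) of the 10 genes (rows) in the 6 pairs of BST2-negative gates (panels); red is called higher, blue called lower and grey not called. CD25+ over FOXP3lo progenitors has 6 genes to the left in blue, with Irf4 (2.41) and Irf8 (0.44) to the right in red.

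Irf1 (ENSMUSG00000018899, GRCm38 chr11:53770014-53778374, plus strand), the activator of antigen presentation genes, had 169, 199.8 and 189.8 CPM in mature Tregs, 99.1, 92.8 and 98.4 CPM in CD25+ progenitors and 233, 219 and 227 CPM in FOXP3lo progenitors, against 147, 138 and 169 CPM in conventional cells. No CD25+ library came within the range of any other gate of these 4, and every FOXP3lo library lay above all others. Irf1 fell in CD25+ progenitors relative to conventional cells (log2 fold change -0.65 ± 0.08 (SE), adjusted p = 8.81e-09) and rose in FOXP3lo progenitors (0.58 ± 0.08, 1.05e-07) and in mature Tregs (0.30 ± 0.08, 0.00213). CD25+ progenitors held 0.428 times the level of FOXP3lo progenitors (-1.22 ± 0.08, adjusted p = 1.43e-16). Mature Tregs were above CD25+ progenitors by 0.95 ± 0.08 and below FOXP3lo progenitors by a log2 fold change of -0.28 ± 0.08 (adjusted p = 0.00701), and the last call was lost without mature Treg replicate 40 (-0.22). With all 15 libraries in the fit, the calls of mature Tregs against conventional cells (adjusted p = 0.199) and against FOXP3lo progenitors (adjusted p = 0.376) ended too.

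Irf7 (ENSMUSG00000025498, chr7:141262706-141266481, minus strand), which amplifies interferon gene transcription and is itself a target of ISGF3, had 93.8, 89.3 and 104 CPM in mature Tregs, 53.5, 48.6 and 56.4 CPM in CD25+ progenitors and 139, 125 and 149.7 CPM in FOXP3lo progenitors, against 95.4, 95.3 and 103 CPM in conventional cells. Mature Tregs and conventional cells overlapped, FOXP3lo libraries lay above both and CD25+ libraries below both. Irf7 fell in CD25+ progenitors relative to conventional cells (-0.89 ± 0.09, adjusted p = 6.69e-11) and rose in FOXP3lo progenitors (0.49 ± 0.09, 1.69e-05). Its log2 fold change in mature Tregs over conventional cells was -0.03 ± 0.09 (adjusted p = 0.833). CD25+ progenitors had 0.383 times the Irf7 of FOXP3lo progenitors (-1.38 ± 0.09, adjusted p = 1.36e-16), and mature Tregs were above CD25+ progenitors (0.86 ± 0.09) and below FOXP3lo progenitors (-0.53 ± 0.09). The last call was lost with all 15 libraries in the fit.

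Irf9 (ENSMUSG00000002325, chr14:55603571-55610030, plus strand), the DNA-binding subunit of ISGF3, had 220.0, 254 and 238 CPM in mature Tregs, 144, 137 and 149 CPM in CD25+ progenitors and 276, 239 and 267 CPM in FOXP3lo progenitors, against 190.1, 181 and 178 CPM in conventional cells. CD25+ libraries were below all others, conventional libraries came next, and the libraries of both FOXP3 gates overlapped at the top. Irf9 fell in CD25+ progenitors relative to conventional cells (-0.36 ± 0.07, adjusted p = 0.000131) and rose in FOXP3lo progenitors (0.51 ± 0.07, 3.5e-07) and mature Tregs (0.37 ± 0.07, 5.9e-05). Mature Tregs over FOXP3lo progenitors gave -0.14 ± 0.07, which was not called (adjusted p = 0.21). Irf9 shares 123 exon bases, 2.28% of its own, with its neighbour Rnf31 on the same strand, and read pairs over both were not counted.

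Irf3 (ENSMUSG00000003184, chr7:44997648-45002848, plus strand), the latent factor that cytosolic RNA and DNA sensors activate, had 54.7, 62 and 64 CPM in mature Tregs, 51, 55.9 and 55.7 CPM in CD25+ progenitors and 80.1, 69.5 and 80.9 CPM in FOXP3lo progenitors, against 81.8, 90.2 and 88.4 CPM in conventional cells. The gates with CD25 lay below those without it, with no overlap between the pairs. Irf3 fell in CD25+ progenitors (-0.68 ± 0.09, adjusted p = 2.03e-07) and in mature Tregs (-0.52 ± 0.09, 2.28e-05) relative to conventional cells. Mature Tregs were also below FOXP3lo progenitors (-0.35 ± 0.09, adjusted p = 0.00624), a call lost without mature Treg replicate 40 (-0.29) or with all 15 libraries in the fit. FOXP3lo progenitors over conventional cells (-0.17 ± 0.09) and mature Tregs over CD25+ progenitors (0.15 ± 0.10) were not called.

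Irf2 (ENSMUSG00000031627, chr8:46739732-46847458, plus strand), the counterpart of Irf1 on the same response elements, had 199, 185 and 199 CPM in mature Tregs, 153, 149.7 and 127 CPM in CD25+ progenitors and 198, 192 and 192 CPM in FOXP3lo progenitors, against 130.4, 123 and 128 CPM in conventional cells. Both FOXP3 gates lay above both gates without FOXP3. Irf2 rose by 0.61 ± 0.07 in FOXP3lo progenitors and by 0.61 ± 0.07 in mature Tregs over conventional cells (adjusted p = 1.63e-08 and 1.02e-08). Mature Tregs over FOXP3lo progenitors gave 0.00 ± 0.07, and CD25+ progenitors over conventional cells gave 0.17 ± 0.07, called only without CD25+ replicate 43 (0.25, adjusted p = 0.0117) among 12 omissions of 1 library.

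Irf4 (ENSMUSG00000021356, chr13:30749226-30766976, plus strand), the factor induced by T cell receptor signalling, had 57, 51.6 and 65.8 CPM in mature Tregs, 111, 112 and 109.7 CPM in CD25+ progenitors and 22.1, 19 and 21.6 CPM in FOXP3lo progenitors, against 55.5, 52.4 and 70.4 CPM in conventional cells. The CD25+ libraries were above all others, the FOXP3lo libraries below all others, and mature Tregs overlapped conventional cells. Irf4 was 5.31 times as high in CD25+ as in FOXP3lo progenitors (2.41 ± 0.11, adjusted p = 1.41e-20). Relative to conventional cells it rose in CD25+ progenitors (0.90 ± 0.11, 4.28e-09) and fell in FOXP3lo progenitors (-1.51 ± 0.11, 3.78e-14), while mature Tregs gave -0.03 ± 0.11 (adjusted p = 0.878). Mature Tregs were below CD25+ progenitors (-0.93 ± 0.11, 2.48e-09) and above FOXP3lo progenitors (1.48 ± 0.11, 2.19e-13). Of the nearest named genes on either side, Dusp22 had 9.7 CPM in mature Tregs, 15.7 CPM in CD25+ progenitors and 6.68 CPM in FOXP3lo progenitors, against 16.3 CPM in conventional cells, and Exoc2 kept within 91.8 to 98.3 CPM in the 4 gate means.

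Irf8 (ENSMUSG00000041515, chr8:120736358-120756694, plus strand), best known from dendritic cells, B cells and macrophages, had 38.2, 37.9 and 29.9 CPM in mature Tregs, 21.8, 22.4 and 27.5 CPM in CD25+ progenitors and 17.3, 18.2 and 17.5 CPM in FOXP3lo progenitors, against 2.31, 2.23 and 3.19 CPM in conventional cells. Every library with CD25 or FOXP3 was several times above every conventional library. Irf8 rose 13.7-fold in mature Tregs (3.78 ± 0.20, adjusted p = 2.36e-19), 9.26-fold in CD25+ progenitors (3.21 ± 0.20, 6.74e-17) and 6.84-fold in FOXP3lo progenitors (2.77 ± 0.20, 6.86e-15) over conventional cells. Mature Tregs were above CD25+ progenitors (0.56 ± 0.16, 0.00582) and FOXP3lo progenitors (1.00 ± 0.16, 1.09e-05).
CD25+ over FOXP3lo progenitors gave 0.44 ± 0.16 (adjusted p = 0.0313), and this call was lost without FOXP3lo replicate 40 (0.43), 42 (0.46) or 43 (0.43) or CD25+ replicate 43 (0.32), or with no filter on low counts (0.43). Markers of the cell types best known for Irf8 did not all move alike in these 12 libraries. The 8 B cell markers summed to 1.38 to 2.91 CPM in mature Tregs, 3.02 to 3.13 CPM in CD25+ progenitors and 1.04 to 2.12 CPM in FOXP3lo progenitors, against 0.58 to 1.49 CPM in conventional cells. The 11 conventional dendritic cell markers summed to 21.3 to 26.2 CPM in mature Tregs, 47.8 to 58.6 CPM in CD25+ progenitors and 12.4 to 15.6 CPM in FOXP3lo progenitors, against 16.3 to 20.3 CPM in conventional cells, most of it Cd74. Of the 10 plasmacytoid dendritic cell markers 7 were tested, and against conventional cells mature Tregs had 4 higher and 0 lower (median log2 fold change 0.83), CD25+ progenitors 2 higher and 1 lower, and FOXP3lo progenitors 1 higher and 0 lower. Single markers followed different orders. Runx2 was at 12.7 to 17.2 CPM in mature Tregs and at most at 8.95 CPM in the other 3 gates, and Zbtb46 at 2.33 to 2.91 CPM against at most 0.822 CPM. Tcf4 was at 28 to 33.3 CPM in mature Tregs, 24.4 to 33.3 CPM in CD25+ progenitors and 15.3 to 17.1 CPM in FOXP3lo progenitors, against 13 to 20.1 CPM in conventional cells. Of more restricted markers, Ms4a1 reached 0.518 CPM, Siglech 0.0548 CPM and Csf1r 1.11 CPM over the 12 libraries. Others differed between gates. Wdfy4 was at 3.23 to 8.75 CPM in CD25+ progenitors and at most at 1.29 CPM in the other 3 gates. For Ly6d the values were 4.04 to 5.48 CPM and at most 2.46 CPM. Cd79b was at 1.04 to 1.29 CPM in mature Tregs and 0.606 to 2.22 CPM in CD25+ progenitors. It was at 0.0559 to 0.749 CPM in FOXP3lo progenitors, against 0.149 to 0.202 CPM in conventional cells. The part of these cell types in the level of Irf8 was not tested.

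Irf5 (ENSMUSG00000029771, chr6:29526625-29541871, plus strand), which acts below toll-like receptors in myeloid and B cells, was the least abundant of the 10. It had 6.24, 8.58 and 7.9 CPM in mature Tregs, 1.05, 0.555 and 2.28 CPM in CD25+ progenitors and 1.96, 4.19 and 2.03 CPM in FOXP3lo progenitors, against 1.13, 0.149 and 0.232 CPM in conventional cells, whose libraries held 28, 2 and 4 counts. All mature Treg libraries were above all others of these 4 gates. Irf5 rose 13.6-fold in mature Tregs (3.77 ± 0.57, adjusted p = 8.8e-07) and 4.9-fold in FOXP3lo progenitors (2.29 ± 0.56, 0.00149) over conventional cells, and was higher in mature Tregs than in CD25+ progenitors (2.54 ± 0.52, 0.000148).
These sizes lean on single libraries. Without conventional replicate 40 the log2 fold changes over conventional cells were 5.23 for mature Tregs, 3.76 for FOXP3lo progenitors and 2.69 for CD25+ progenitors, the last then called (adjusted p = 0.00359, against 1.22 ± 0.57 and 0.109 with all libraries). It was also called without CD25+ replicate 42 (1.58). CD25+ over FOXP3lo progenitors, -1.07 ± 0.52 and not called, gave -1.77 without CD25+ replicate 43 and was then called. Without that library mature Tregs exceeded CD25+ progenitors by 3.24. Mature Tregs over FOXP3lo progenitors, 1.47 ± 0.50 (adjusted p = 0.0308), lost its call without FOXP3lo replicate 40 (1.28) or 43 (1.30) or mature Treg replicate 42 (1.37) or 43 (1.43). Of the exon bases of Irf5, 14.1% face those of Tnpo3 on the opposite strand, a gene at 87.5 to 117 CPM, and counting used the strand.

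Ifnar1 (ENSMUSG00000022967, chr16:91485238-91507441, plus strand), the receptor chain that binds TYK2, had 231, 219 and 232 CPM in mature Tregs, 173, 179 and 179 CPM in CD25+ progenitors and 209.8, 232 and 216 CPM in FOXP3lo progenitors, against 158, 160.3 and 152 CPM in conventional cells. Conventional libraries were lowest, CD25+ libraries next, and the FOXP3 gates overlapped above them. Ifnar1 rose in mature Tregs (0.54 ± 0.07, adjusted p = 2.38e-08) and in FOXP3lo progenitors (0.49 ± 0.07, 3.28e-07) over conventional cells, and these gates differed by 0.05 ± 0.07. CD25+ progenitors were below FOXP3lo progenitors (-0.31 ± 0.07, 0.000288) and mature Tregs above CD25+ progenitors (0.36 ± 0.07, 4.23e-05). The rise in CD25+ progenitors over conventional cells (0.18 ± 0.07, adjusted p = 0.0431) did not survive 8 of 12 omissions of 1 library: any conventional or CD25+ library, or FOXP3lo replicate 42 or 43, with log2 fold changes of 0.15 to 0.20 over all 12, and was not called without a filter on low counts (0.17) or with the 2 gates fitted alone (0.18).

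Ifnar2 (ENSMUSG00000022971, chr16:91372783-91405589, plus strand), the high-affinity chain that binds JAK1, had 67, 75.4 and 60.5 CPM in mature Tregs, 54.9, 58.6 and 54.4 CPM in CD25+ progenitors and 68.5, 61.6 and 68.4 CPM in FOXP3lo progenitors, against 38.7, 45.7 and 37.2 CPM in conventional cells. Conventional libraries were below all others. Ifnar2 rose over conventional cells in mature Tregs (0.74 ± 0.10, adjusted p = 2.47e-07), CD25+ progenitors (0.47 ± 0.10, 0.00041) and FOXP3lo progenitors (0.71 ± 0.10, 7.68e-07). CD25+ over FOXP3lo progenitors gave -0.24 ± 0.10 (adjusted p = 0.0603), which was called with the replicate number as a block (-0.24, adjusted p = 0.0489) and without FOXP3lo replicate 42 (-0.29). Mature Tregs over CD25+ progenitors gave 0.27 ± 0.10 (adjusted p = 0.0386), lost without mature Treg replicate 40 (0.28) or 42 (0.18), FOXP3lo replicate 40 (0.25) or CD25+ replicate 40 (0.26), 42 (0.30) or 43 (0.25), or without a filter on low counts (0.27, adjusted p = 0.0768). Some 9.46% of the exon bases of Ifnar2 are shared with an unnamed gene on the same strand that had 0 to 8 counts a library.

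On chromosome 16, Il10rb, a shared chain of the interleukin-10 and interferon lambda receptors, lies between Ifnar2 and Ifnar1, and Ifngr2, a chain of the interferon gamma receptor, lies after Ifnar1. Il10rb begins 574 bases from Ifnar2. It averaged 48.0 CPM in mature Tregs, 27.5 CPM in CD25+ progenitors and 34.2 CPM in FOXP3lo progenitors, against 16.7 CPM in conventional cells, and rose in all 3 (1.53, 0.74 and 1.05, each called). Ifngr2 averaged 83.6, 78.7 and 85.7 CPM in the same 3 gates, against 87.0 CPM in conventional cells, and was called in none of the 6 pairs. Ifngr1, the ligand-binding chain of the interferon gamma receptor, averaged 219.8 ± 18.9 CPM in mature Tregs, 46.3 ± 7.11 CPM in CD25+ progenitors and 109 ± 10.5 CPM in FOXP3lo progenitors, against 52.4 ± 4.01 CPM in conventional cells. It rose in mature Tregs (2.07 ± 0.10, adjusted p = 6.52e-21) and FOXP3lo progenitors (1.05 ± 0.10, 9.86e-12).

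Levels of different genes were compared as CPM per kilobase of exon. Irf1 led in mature Tregs (46.9 ± 3.89), in FOXP3lo progenitors (56.9 ± 1.77) and in conventional cells (38.1 ± 4.04), with Irf9 next at 44.1 ± 3.15, 48.4 ± 3.58 and 34 ± 1.14 CPM per kilobase. In mature Tregs the gap between Irf1 and Irf9 was smaller than either SD. In CD25+ progenitors Ifnar1 led (29.8 ± 0.572), then Irf9 (26.6 ± 1.17), Irf1 (24.3 ± 0.86) and Irf4 (22.6 ± 0.247), while Irf4 was ahead of Irf5 and Irf8 alone in each of the other 3 BST2-negative gates. Irf7 stood at 25.3 ± 1.97 in mature Tregs, 14 ± 1.04 in CD25+ progenitors, 36.5 ± 3.27 in FOXP3lo progenitors and 25.9 ± 1.18 CPM per kilobase in conventional cells. Irf8 and Irf5 were the lowest in all 4, at 5.01 ± 0.668 and 2.61 ± 0.414 in mature Tregs and at 0.365 ± 0.0753 and 0.174 ± 0.188 CPM per kilobase in conventional cells.

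The 4 gates cross CD25 with FOXP3 by label, so whether a difference with CD25 is unlike with and without FOXP3 was tested. The contrast was mature Tregs minus FOXP3lo progenitors, less CD25+ progenitors minus conventional cells. In RNA the cross was uneven. Il2ra averaged 1152 CPM in mature Tregs against 107 CPM in FOXP3lo progenitors, and 289 CPM in CD25+ progenitors against 9.07 CPM in conventional cells. Foxp3 also differed between mature Tregs and FOXP3lo progenitors (598 against 290 CPM). An effect of FOXP3 cannot be told apart from these uneven steps. Of the 10 genes 5 were called, 3 higher and 2 lower, with 10.9% of all genes called (5.46% higher, 5.39% lower). Irf8 had the largest interaction: the difference with CD25 was 1.00 on the log2 scale with FOXP3 and 3.21 without it (interaction -2.21 ± 0.25, adjusted p = 1.24e-08). For Irf4 it was 1.48 with FOXP3 and 0.90 without (0.58 ± 0.15, adjusted p = 0.00878). For Irf1 it was -0.28 with FOXP3 and -0.65 without (0.37 ± 0.11, 0.0209), for Irf7 -0.53 and -0.89 (0.36 ± 0.12, 0.048), and for Ifnar2 0.03 and 0.47 (-0.44 ± 0.15, 0.0447).
The call of Irf8 was kept under every omission of 1 library. Irf4 lost its call without conventional replicate 43 or mature Treg replicate 43 (0.44 each), and Irf1 without CD25+ 42 (0.34), FOXP3lo 42 (0.34), mature Treg 42 (0.31), conventional 43 (0.28) or mature Treg 43 (0.32). Irf7 lost its call under 9 of 12 omissions, all but FOXP3lo replicate 43, CD25+ replicate 43 and mature Treg replicate 42 (0.27 to 0.38 in the 9), and Ifnar2 under 8 of 12, all but conventional, FOXP3lo and mature Treg replicate 42 and CD25+ replicate 43 (-0.45 to -0.38 in the 8). Both calls were lost without a filter on low counts, that of Irf7 also with limma-voom (0.37) and that of Ifnar2 with DESeq2 (-0.43).

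**Figure D3:**
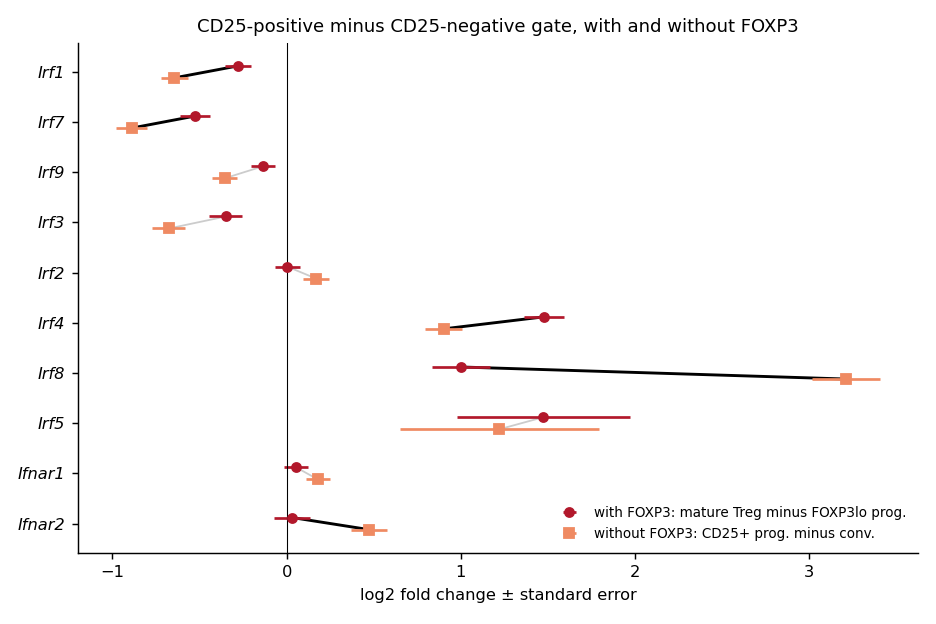
Log2 difference between gates with and without CD25 (horizontal axis, ± standard error) for each gene, as red circles with FOXP3 (mature Tregs minus FOXP3lo progenitors) and orange squares without it (CD25+ progenitors minus conventional cells); black joins the 2 where the interaction was called. Irf8 shows the widest gap, 1.00 against 3.21.

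CD25+ progenitors also stood apart in the summed markers of CD4 and CD8 double-positive thymocytes. These 9 genes summed to 217 to 279 CPM in CD25+ progenitors and to 65.3 to 68.4 CPM in mature Tregs. The sums were 51.8 to 58.1 CPM in FOXP3lo progenitors and 83.5 to 131 CPM in conventional cells. Not every gene followed the sum. In CD25+ progenitors 5 of the 9 were called higher than in conventional cells, 2 lower and 2 not called. Cd1d1 was at 18.8 to 21.3 CPM in CD25+ progenitors, against 27.1 to 34.9 CPM in conventional cells. Cd8a overlapped, at 11.3 to 24.1 CPM in CD25+ progenitors and 9.14 to 27.2 CPM in conventional cells. Rag1, a recombinase subunit of immature thymocytes, was at 40.9 to 72.5 CPM in CD25+ progenitors, 1.87 to 3.17 CPM in mature Tregs, 1.79 to 2.63 CPM in FOXP3lo progenitors and 0.696 to 6.11 CPM in conventional cells. The conventional dendritic cell markers were also highest in this gate among these 4, as given beside Irf8. Of 5 tested genes of natural killer and innate-like T cells, 4 were higher and 1 lower than in conventional cells both in mature Tregs (median log2 fold change 3.47) and in CD25+ progenitors (3.77), with 2 higher in FOXP3lo progenitors (0.63). Conventional cells were near the floor here, with Tbx21, Nkg7 and Eomes at most at 0.405, 0.968 and 2.09 CPM. The 9 listed genes summed to 38.7 to 49.8 CPM in mature Tregs, 43.4 to 48.9 CPM in CD25+ progenitors and 37.8 to 39.3 CPM in FOXP3lo progenitors, against 29.5 to 38.4 CPM in conventional cells. Much of each sum was Cd1d1, also on the double-positive list, at 17.5 to 24.8 CPM in mature Tregs and 27.9 to 29.0 CPM in FOXP3lo progenitors. Eomes was at 9.06 to 12.5 CPM in mature Tregs, 13.8 to 16.6 CPM in CD25+ progenitors and 8.27 to 9.33 CPM in FOXP3lo progenitors. Over all genes, 15.1% were called higher and 15.3% lower in mature Tregs than in conventional cells. The shares were 14.7% and 14.3% in CD25+ progenitors, and 12.8% and 12.3% in FOXP3lo progenitors. Of 8 CD4 T cell markers, 7 were lower than in conventional cells in mature Tregs (median -0.57) and 7 in CD25+ progenitors (-0.44). FOXP3lo progenitors had 1 of these markers higher and 2 lower (-0.11), and mature Tregs had all 8 lower than FOXP3lo progenitors (-0.44). The part of these genes' cells in the levels of Irf1, Irf4, Irf7 and Irf9 was not tested.

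Genes around the 10 were counted in lists drawn up by their textbook roles. Against conventional cells, 30.4% of all genes were called in mature Tregs, 29.0% in CD25+ progenitors and 25.1% in FOXP3lo progenitors. CD25+ against FOXP3lo progenitors had 39.5% called (19.9% higher, 19.7% lower). Mature Tregs had 32.7% called against CD25+ progenitors (15.9% higher, 16.8% lower) and 18.7% against FOXP3lo progenitors (9.37% higher, 9.29% lower). A list called at about such a share does not stand apart. Interferon genes were barely counted in the sorted cells: 9 of 17 interferon genes had no count in any library, and all 17 together had 81 of 244006845 assigned counts. A gene with 0 counts could be present at up to 0.277 CPM in the shallowest library, at 3 counts, and these limits cover counting error only. None of the 17 passed the filter on low counts.

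Most of the 28 targets of ISGF3 were lower in CD25+ progenitors, and most were higher in FOXP3lo progenitors, than in conventional cells. CD25+ progenitors had 23 lower and 0 higher than conventional cells, at a median log2 fold change of -0.67, and 27 lower and 0 higher than FOXP3lo progenitors, at -1.19. FOXP3lo progenitors had 17 higher and 1 lower than conventional cells (median 0.44), and mature Tregs 12 higher and 2 lower (0.15), while the medians of all genes tested were within 0.02 of 0. Mature Tregs had 24 higher and 0 lower than CD25+ progenitors, and 0 higher and 14 lower than FOXP3lo progenitors. Ifit3, an interferon-induced tetratricopeptide protein, averaged 27.4 ± 2.77 CPM in mature Tregs, 4.19 ± 0.752 CPM in CD25+ progenitors and 38.2 ± 5.29 CPM in FOXP3lo progenitors, against 15.9 ± 1.69 CPM in conventional cells. Zbp1, a sensor of left-handed nucleic acids, averaged 180.0 ± 24.1, 87.3 ± 5.17 and 259 ± 20.5 CPM in the same 3 gates, against 193 ± 10.1 CPM in conventional cells. Oas2, an activator of RNase L, ran against most of the list in both FOXP3 gates relative to conventional cells. It averaged 11.6 ± 3.10 CPM in mature Tregs, 10.4 ± 4.08 CPM in CD25+ progenitors and 25.1 ± 3.01 CPM in FOXP3lo progenitors, against 60.3 ± 12 CPM in conventional cells, and fell in all 3.

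Of 20 tested genes responsive to IRF1 and interferon gamma, CD25+ progenitors had 11 lower and 0 higher than conventional cells (median log2 fold change -0.48). FOXP3lo progenitors had 12 higher and 0 lower (median 0.51), and mature Tregs 11 higher and 1 lower (0.40). CD25+ progenitors had 14 lower and 0 higher than FOXP3lo progenitors, and mature Tregs 16 higher and 0 lower than CD25+ progenitors. Nlrc5, the transactivator of MHC class I genes, averaged 463 ± 57.0 CPM in mature Tregs, 184 ± 7.35 CPM in CD25+ progenitors and 543 ± 7.19 CPM in FOXP3lo progenitors, against 357 ± 32.7 CPM in conventional cells, the same order as Irf1 from FOXP3lo progenitors down. B2m, the light chain of MHC class I, averaged 964 ± 30.6, 462 ± 9.36 and 831 ± 9.04 CPM in those gates and 526 ± 15.7 CPM in conventional cells, so mature Tregs led. Gbp4, an interferon-inducible GTPase, was the exception in mature Tregs (-0.84 ± 0.07 over conventional cells, adjusted p = 3.66e-12). Socs1, an inhibitor of JAK kinases that interferon induces, was above conventional cells in mature Tregs alone among the 3 gates tested against them (1.03 ± 0.14, adjusted p = 1.52e-07), at 54.6 ± 1.42 CPM against 26.8 ± 2.54 CPM, and its interaction of CD25 with FOXP3 was called (1.55 ± 0.20, 2.22e-07).

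**Figure D4:**
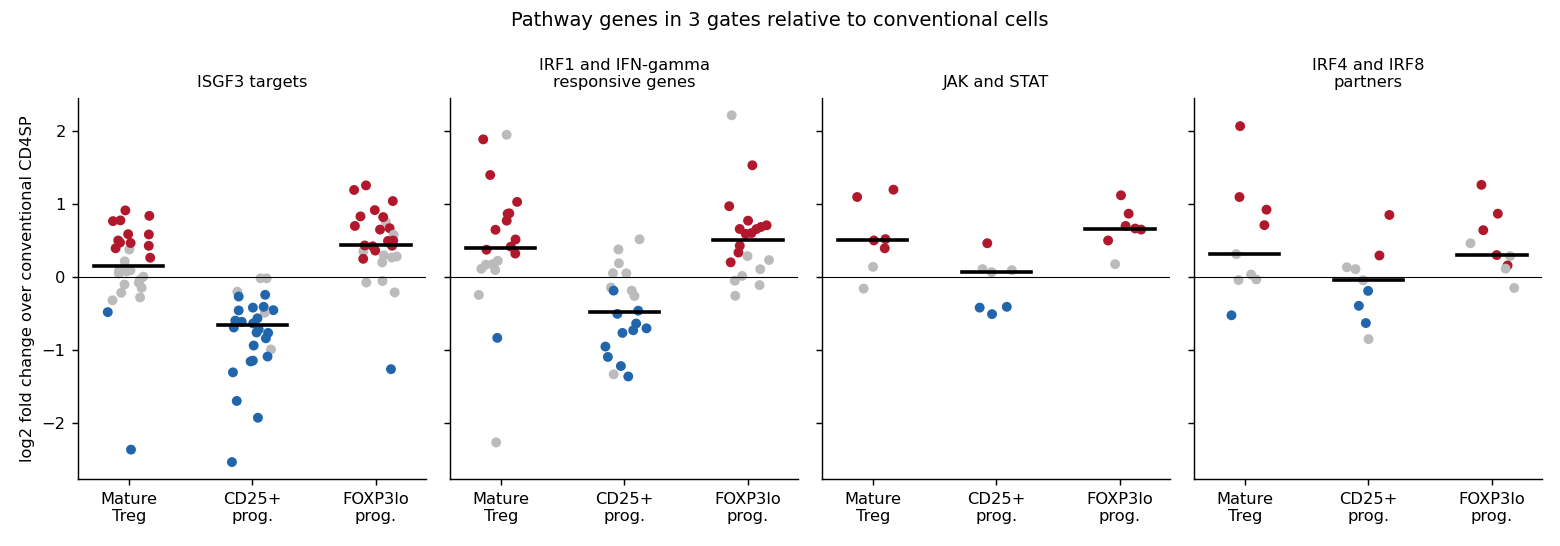
Log2 fold change over conventional CD4SP cells (vertical axis) of genes in 4 lists (panels) for mature Tregs, CD25+ progenitors and FOXP3lo progenitors; each point is a gene, red called higher, blue called lower, grey not called, and black bars are medians. Foxp3, a gate gene among the partners, is not drawn. For ISGF3 targets the medians are 0.15, -0.67 and 0.44.

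Of the 7 kinases and STAT factors below the interferon receptors, 5 rose in mature Tregs and 6 in FOXP3lo progenitors over conventional cells with none lower, and CD25+ progenitors had 1 higher and 3 lower. Jak2, a kinase of the interferon gamma receptor, rose in all 3 gates (0.52 ± 0.07, 0.46 ± 0.07 and 0.67 ± 0.07). Of 9 inhibitors of receptor signalling, mature Tregs had 3 higher and 2 lower than conventional cells, CD25+ progenitors 1 higher and 5 lower, and FOXP3lo progenitors 2 higher and 1 lower. Of 18 tested sensors and adaptors above IRF3, IRF5 and IRF7, mature Tregs had 6 higher and 1 lower, CD25+ progenitors 5 higher and 6 lower, and FOXP3lo progenitors 7 higher and 0 lower, where 30.4%, 29.0% and 25.1% of all genes were called in these 3 gates. Tlr7, the endosomal receptor of single-stranded RNA, rose in mature Tregs (0.98 ± 0.11) and FOXP3lo progenitors (1.02 ± 0.11), whereas Ddx58, the RIG-I sensor of RNA, fell in CD25+ progenitors (-1.06 ± 0.08, adjusted p = 1.1e-14).

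Around Irf4, the 12 regulators of NF-kB and T cell receptor signalling had 7 higher and 4 lower in mature Tregs, 6 higher and 4 lower in CD25+ progenitors and 6 higher and 0 lower in FOXP3lo progenitors, all against conventional cells. Rel, the NF-kB subunit that activates Foxp3 in mice, averaged 436 ± 17.7 CPM in mature Tregs, 220.4 ± 3.40 CPM in CD25+ progenitors and 225 ± 13.2 CPM in FOXP3lo progenitors, against 113 ± 8.22 CPM in conventional cells, an order unlike that of Irf4. Nr4a1, induced by T cell receptor signals, averaged 207 ± 25.1, 393 ± 60.7 and 212 ± 14.7 CPM in the same gates, against 155 ± 10.8 CPM, and like Irf4 was higher in CD25+ than in FOXP3lo progenitors (0.89 ± 0.09, adjusted p = 1.35e-09). Of 7 tested genes of IRF4-dependent effector Tregs, mature Tregs had 4 higher and 2 lower than conventional cells, CD25+ progenitors 3 higher and 1 lower, and FOXP3lo progenitors 2 higher and 1 lower. Ccr8, a chemokine receptor, was likewise highest in CD25+ and lowest in FOXP3lo progenitors, with 18.1 ± 1.94 CPM in mature Tregs, 43.8 ± 1.67 CPM in CD25+ progenitors and 10.5 ± 1.6 CPM in FOXP3lo progenitors, against 26.3 ± 4.52 CPM in conventional cells. Of 10 tested DNA-binding partners of IRF4 and IRF8, CD25+ progenitors had 0 higher and 7 lower than FOXP3lo progenitors, and 3 higher and 3 lower than conventional cells. The 7 lower and the 3 higher include Foxp3, on which the gates were sorted. Ikzf3 (Aiolos) was higher than in conventional cells in mature Tregs (0.92 ± 0.08), CD25+ progenitors (0.85 ± 0.08) and FOXP3lo progenitors (1.26 ± 0.08).

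Similar genes were sought by the root mean square difference between log2 CPM profiles over the 12 libraries, among 8645 or 8646 named genes. Nearest to Irf7 were Samd9l (0.10), an interferon-induced gene, Nlrc3 (0.11) and Trim12a (0.11), where the profile of Irf7 itself spread by 0.50. Nearest to Irf1 were Cnp (0.10), Zbtb4 (0.11) and H2-T22 (0.12), a non-classical MHC class I gene, and nearest to Irf9 were Add1 (0.07), Rac2 (0.09) and Med13l (0.09). Nearest to Irf4 were Cdca7 (0.18), a gene of dividing cells, Mettl1 (0.24) and Mthfd1 (0.25), an enzyme of folate metabolism. Cdca7 had 28.7 ± 1.77 CPM in mature Tregs, 65.1 ± 6.22 CPM in CD25+ progenitors and 10.6 ± 1.51 CPM in FOXP3lo progenitors, against 26.8 ± 4.45 CPM in conventional cells. Nearest to Irf8 were Pla2g4f (0.27), Tbc1d4 (0.29) and Ikzf2 (0.29), which encodes the Treg factor Helios and averaged 1151 ± 105 CPM in mature Tregs, 1158 ± 48.7 CPM in CD25+ progenitors and 596 ± 53.3 CPM in FOXP3lo progenitors, against 95.3 ± 2.79 CPM in conventional cells. Irf5 had no close match (0.67 for Cc2d2b, against its own 1.6), Ifnar2 was nearest to Traf2, Otud7b and Braf (0.13 each), and Irf2, Irf3 and Ifnar1 varied too little for such a search.

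The Bst2+ gate was compared with the average of mature Tregs, CD25+ progenitors and FOXP3lo progenitors in a fit of all 15 libraries and 16069 genes. Of the 10 genes 7 were called, 1 higher and 6 lower, with 39.1% of all genes called (19.3% higher, 19.8% lower). With a variance of its own for each gate, 4 were called, namely Irf5 (higher), Irf7, Irf9 and Ifnar1 (lower).
Ifnar1 had 95.7, 109 and 166 CPM in Bst2+ libraries, below every library of mature Tregs, CD25+ progenitors and FOXP3lo progenitors (log2 fold change -0.74 ± 0.12, adjusted p = 0.000138). Irf9 had 83, 115 and 159 CPM there, with replicates 40 and 42 below all other libraries (-0.80 ± 0.13, 0.000178). Irf2 (-0.45 ± 0.08, 0.000175), Irf3 (-0.54 ± 0.10, 0.000335) and Irf1 (-0.48 ± 0.12, 0.00334) also fell, at 118 to 136, 40.4 to 46.7 and 84.2 to 137 CPM in Bst2+ libraries, and these 3 calls were lost with a variance per gate. Ifnar2, at 46.4, 48 and 59 CPM, was called lower (-0.30 ± 0.11, adjusted p = 0.0422), a call that ended when the replicate number entered as a block (-0.30, adjusted p = 0.0584) and under 6 omissions of 1 library, FOXP3lo 40 or 43, Bst2+ 40 or 42, CD25+ 42 and mature Treg 42 (-0.24 to -0.30). It also ended with RLE scaling (-0.25), DESeq2 (-0.25), limma-voom (-0.29) or no filter on low counts (-0.34). Irf4 had 52.4, 29 and 55.2 CPM and was not called (-0.17 ± 0.16).

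Irf5, Irf7 and Irf8 spread widely over the Bst2+ libraries. Irf7 had 107, 31.4 and 52.3 CPM in replicates 40, 42 and 43, where Bst2 was also highest in replicate 40, and its fold change (-0.48 ± 0.23, adjusted p = 0.104) was -1.09 and called without that library, and -0.71 and called with limma-voom. Irf5 had 3.55, 8.49 and 24.1 CPM and was called higher (2.01 ± 0.56, 0.00878), a call lost without replicate 43 (1.00, adjusted p = 0.18). Irf8 had 19.5, 23.5 and 58.1 CPM and was not called (0.46 ± 0.25, 0.154), with 0.73 and a call without replicate 40 and -0.20 without replicate 43. Beside these values, all 12 macrophage markers were present in every Bst2+ library, at sums of 1070.5, 736 and 1419.5 CPM in replicates 40, 42 and 43. The 11 dendritic cell markers summed to 280.2, 275 and 267 CPM in those libraries, against 12.4 to 58.6 CPM in the other 12, and the 8 B cell markers to 7.38, 47.9 and 43.6 CPM, against 0.58 to 3.13 CPM. Double-positive thymocyte markers summed to 937 to 1617 CPM, with Rag1 at 324 to 534 CPM. Csf1r, the defining macrophage receptor, was at 34.8 to 141 CPM in Bst2+ libraries, against at most 1.11 CPM elsewhere, and Siglech of plasmacytoid dendritic cells reached 1.45 CPM. The part of these cell types in the levels of Irf5, Irf7 and Irf8 in the Bst2+ gate was not tested.

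**Figure D5:**
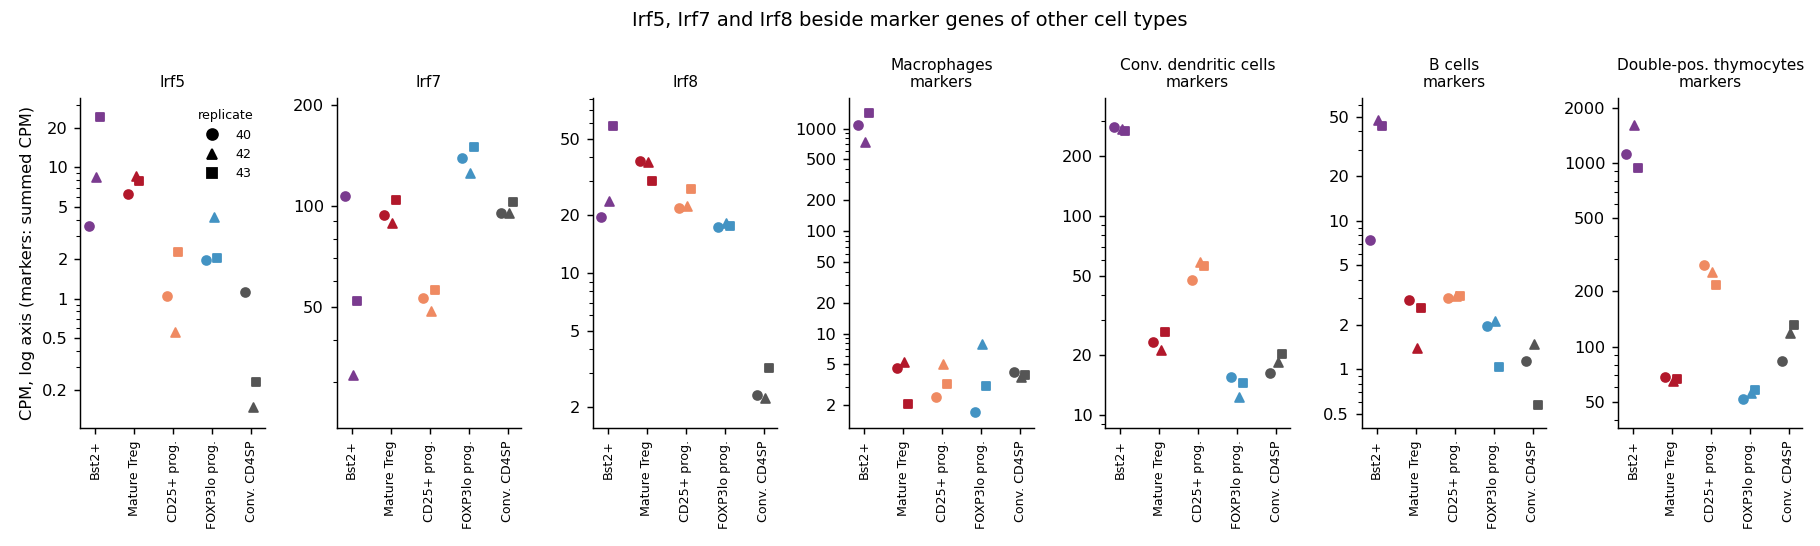
CPM of Irf5, Irf7 and Irf8 and summed CPM of 4 marker lists (vertical log axes) in each gate; shape gives the replicate (40 circle, 42 triangle, 43 square). In the Bst2+ gate Irf5 and Irf8 are highest in replicate 43 and Irf7 in replicate 40, and the macrophage markers sum to 736 to 1419.5 CPM, against at most 7.99 CPM in the other gates.

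In the Bst2+ gate 10 of 28 ISGF3 targets fell relative to the average of the 3 other gates (median -0.32). The 1 target called higher was Bst2, on whose protein the gate was sorted, at 50.3 CPM in replicate 40 and 18.4 and 15.7 CPM in replicates 42 and 43. Of 7 JAK and STAT genes 6 fell, among them Stat2 (-0.84 ± 0.09, adjusted p = 1.63e-06). Unc93b1, which carries endosomal toll-like receptors and is strong in myeloid cells, averaged 99.9 ± 30.6 CPM in Bst2+ libraries, against 2.45 ± 0.157 CPM in mature Tregs, 6.09 ± 0.682 CPM in CD25+ progenitors and 2.52 ± 0.696 CPM in FOXP3lo progenitors.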

How the data were processed

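RNA of sorted thymocytes was made into libraries with the SMARTer Stranded Total RNA-Seq v2 Pico kit, per the labels' protocols. The submitters' processing notes name Trimmomatic 0.33, HISAT2 2.1.0, Subread and featureCounts 1.4.6, while the header of the table names featureCounts 1.6.2. The deposited table gives unnormalized counts for each Ensembl gene (GRCm38, release 97, per the file headers), in read pairs assigned by strand with both mates mapped and a mapping quality of at least 10. Pairs over more than 1 gene were not assigned.

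The table held 55573 gene IDs, of which 37148 were named by overlap of their whole span with a RefSeq gene, without regard to strand. Of these, 256 were named by a shared end and 2813 as an only overlapping partner. Of 244 list entries 239 were matched. Counts were tested with edgeR 4.0.16 in R 4.3.3 (filterByExpr, TMM, robust quasi-likelihood), with Benjamini-Hochberg adjustment over all genes tested. The 4 BST2-negative gates were fitted on 12 libraries, and the Bst2+ comparison on all 15. CPM used TMM factors over all 15 libraries, while the fit of 12 libraries had TMM factors of its own. Alternatives were limma-voom (limma 3.58.1), DESeq2 1.42.0, RLE scaling, no filter, other libraries in the fit, a variance per gate and the replicate number as a block. At most 3 called genes per list and comparison, those with the smallest adjusted p, were named, and Bst2 was named among the ISGF3 targets after its values were seen. Similar genes needed a mean of at least 5 CPM, and members a profile spread of at least 0.3.

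The members, the lists and the choice of fits were made with earlier results of these data known. The design text gives 3 biological replicates in 1 experiment, and same-numbered samples were taken as 1 replicate across gates; their deviations correlated by -0.016 to 0.042 over 30 pairs, against -0.044 to 0.035 over 60 pairs with other numbers. No pair of replicates was a duplicate.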

Additional observations from a re-analysis of the deposited data

Results flagged for a closer look

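For 5 of the 10 genes the difference between gates with and without CD25 was called as unlike with and without FOXP3. The test was edgeR's quasi-likelihood test, where 10.9% of all genes were called. Il2ra and Foxp3 changed unevenly over these gates, so an effect of FOXP3 itself cannot be told apart. The log2 interaction was -2.21 for Irf8, 0.58 for Irf4, 0.37 for Irf1, 0.36 for Irf7 and -0.44 for Ifnar2. The call of Irf7 ended under 9 of 12 omissions of 1 library and that of Ifnar2 under 8 of 12, and with all 15 libraries in the fit Irf8 alone was called.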

How the results depend on the processing

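No value of the 10 genes changed sign with a call in 550 recomputations under other settings or in 990 with 1 library left out, and 928 of the 990 stayed on their side of the threshold, called or not, while 55 lost a call and 7 gained one. Apart from the fit of all 15 libraries, 457 of 480 recomputations under other settings stayed on their side. With all 15 libraries in 1 fit, 1 of the 10 genes separated mature Tregs from FOXP3lo progenitors and 1 had a called interaction. The interaction was called for 3 without a filter on low counts. The Bst2+ comparison had 4 called with limma-voom and a variance per gate, and 2227 of all genes in place of 6286. With all 15 libraries the calls over all genes were 1871 for CD25+ progenitors, 1400 for FOXP3lo progenitors and 1957 for mature Tregs against conventional cells, 3069 for CD25+ against FOXP3lo progenitors, 2096 for mature Tregs against CD25+ progenitors, 759 against FOXP3lo progenitors and 378 for the interaction. Leaving out 1 library gave 7 to 8 called genes of the 10 for CD25+ progenitors against conventional cells, 9 to 9 for FOXP3lo progenitors and 8 to 8 for mature Tregs, 7 to 8 for CD25+ against FOXP3lo progenitors, 8 to 9 for mature Tregs against CD25+ progenitors, 4 to 6 against FOXP3lo progenitors, 6 to 8 for the Bst2+ gate and 1 to 5 for the interaction. The replicate block moved the calls of Ifnar2 in CD25+ against FOXP3lo progenitors (-0.24) and in the Bst2+ gate (-0.30), and no other call of the 10 genes. The cause of these changes was not tested. Irf5 had 2 to 28 counts in conventional libraries.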
